A study of Mus musculus with 5 samples.

Results

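The cells described here are lung macrophages with strong expression of the complement C1q genes and few UMIs of *Gpnmb*, *Mmp12* and *Mfge8*, 3 genes of the macrophages that gather in fibrotic lung. They were chosen barcode by barcode from measured values. Only barcodes of good quality were considered (between 300 and 8000 genes, between 800 and 60000 UMIs, less than 15% of UMIs from mitochondria). Such a barcode was a member when *C1qa*, *C1qb* and *C1qc* together had 10 or more UMIs, *Cd68*, a lysosomal membrane protein of macrophages, had 1 or more, *Car4*, a carbonic anhydrase of alveolar macrophages (AMs), had at most 1, *Gpnmb*, *Mmp12* and *Mfge8* together had under 20, and the lymphocyte genes *Cd3e* and *Cd79a* had 0. In the day 3 library, barcodes with 3 or more UMIs of *Ly6c2*, a surface protein of inflammatory monocytes, were left out. By this rule 2756 of 44772 filtered barcodes were members, and they are called C1q interstitial macrophages (C1q IMs). The 3797 barcodes that met the same rule but had 20 or more UMIs of *Gpnmb*, *Mmp12* and *Mfge8* are called Mmp12-high C1q macrophages.

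All 5 libraries came from lungs of *Ms4a3-CreER;R26-tdT* mice, described in the study as adults of both sexes on a mixed C57BL6/129 background. In this genotype a tamoxifen-dependent Cre driven from *Ms4a3*, a gene of granulocyte and monocyte progenitors, switches on a tdT reporter that cells and their progeny then keep, so that neutrophils are labelled as well as monocytes. The sham library came from lungs given PBS, and the other 4 from lungs 3, 7, 14 and 28 days after intratracheal bleomycin, a DNA-damaging drug used to model lung fibrosis. There was 1 library per time point, the number of mice behind each is not given in the sources used here, and the labels call the cells immune cells of the lung. Differences between time points were therefore not tested, and intervals given with shares and levels (exact 95% binomial or Poisson) cover counting error only.

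Interstitial macrophages live in the connective tissue around airways and vessels, outside the alveoli where AMs live. They are known for a *Lyve1*- and *Folr2*-expressing kind near vessels and a kind rich in MHC class II, which presents antigen to T cells, and both are renewed to different degrees from blood monocytes. C1q is the recognition molecule of the classical complement pathway, built from 3 chains, which macrophages secrete and which also tags dying cells for uptake. Its chains are encoded side by side on the minus strand of mouse chromosome 4 (GRCm38), *C1qb* at 136880129 to 136886187, *C1qc* at 136889804 to 136893065 and *C1qa* at 136895917 to 136898803. Because the C1q genes define the cells and *Pf4*, a marker outside the rule, is followed in them, the 250 bases before the RefSeq start sites of *C1qb*, *C1qc* and *Pf4* are shown (GRCm38.p6, 5′ to 3′ on the strand of the gene), at chr4:136886201-136886450 (minus), chr4:136892915-136893164 (minus) and chr5:90772185-90772434 (plus). Capitals mark TGCTGA, a half-site of MAF family factors, and GAGGAA, the core of sites for the macrophage factor PU.1, on either strand (reverse forms TCAGCA and TTCCTC).
C1qb: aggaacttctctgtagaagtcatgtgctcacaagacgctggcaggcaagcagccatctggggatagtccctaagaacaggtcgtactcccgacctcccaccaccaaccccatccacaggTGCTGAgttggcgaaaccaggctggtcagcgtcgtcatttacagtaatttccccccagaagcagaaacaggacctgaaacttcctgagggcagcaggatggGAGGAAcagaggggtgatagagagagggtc
C1qc: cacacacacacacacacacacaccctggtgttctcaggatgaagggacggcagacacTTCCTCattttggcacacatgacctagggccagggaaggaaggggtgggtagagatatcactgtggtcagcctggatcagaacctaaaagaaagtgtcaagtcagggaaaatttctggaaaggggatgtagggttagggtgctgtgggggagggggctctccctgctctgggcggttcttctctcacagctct
Pf4: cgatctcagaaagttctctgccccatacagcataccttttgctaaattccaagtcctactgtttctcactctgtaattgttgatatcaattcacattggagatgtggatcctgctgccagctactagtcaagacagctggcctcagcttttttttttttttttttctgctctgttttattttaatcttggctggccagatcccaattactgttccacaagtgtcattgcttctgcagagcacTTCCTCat
*C1qb* had TGCTGA at -131 to -126 and GAGGAA at -30 to -25 from the start site, *C1qc* had TTCCTC at -193 to -188 and *Pf4* had TTCCTC at -8 to -3. Of 32851 RefSeq windows of this length, 16.1% held the first motif and 23.3% the second on either strand, so that these matches are common. The start sites are those of the RefSeq windows, and that of *C1qc* lies inside the gene span given above, so that part of its window overlaps that span. A match describes the letters of the window and shows no binding.

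C1q IMs were rare in sham lungs and most frequent at day 7. They made up 57 of 9238 filtered barcodes in sham (0.617%, 95% interval 0.468 to 0.799) and 109 of 8004 on day 3 (1.36%, 1.12 to 1.64). By day 7 they were 1471 of 9493 (15.5%, 14.8 to 16.2), before going to 741 of 7757 by day 14 (9.55%, 8.91 to 10.2) and 378 of 10280 by day 28 (3.68%, 3.32 to 4.06). The intervals of the 5 libraries do not overlap. At day 3, 841 further C1q barcodes carried 3 or more *Ly6c2* UMIs and were outside the rule, 512 of them under the *Gpnmb*, *Mmp12* and *Mfge8* limit, so that the day 3 share depends on that exclusion and would be 7.76% without it. At day 7, where the exclusion does not apply, 165 of the members reached this *Ly6c2* level.

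Among C1q macrophages that met the rest of the rule, the part under the limit was smaller at day 14 and smallest at day 28. In sham it was 57 of 68 (83.8%, 72.9 to 91.6) and on day 3 it was 109 of 131 (83.2%, 75.7 to 89.2). It then came to 1471 of 2232 by day 7 (65.9%, 63.9 to 67.9), 741 of 1866 by day 14 (39.7%, 37.5 to 42.0) and 378 of 2256 by day 28 (16.8%, 15.2 to 18.4). The exclusion by *Ly6c2* acts on day 3 only, and without it that library had 63.9% (60.8 to 66.9) of 972 barcodes under the limit, about the day 7 part. The limit acts on raw UMIs, and Mmp12-high cells were also the deeper ones. Median UMIs per cell were 13026, 9144, 13349, 21301 and 13936 in C1q IMs from sham to day 28, against 24095, 14342, 20754, 29791 and 23907 in Mmp12-high cells. With both limits set per 10000 UMIs, the part under the limit was 90.3%, 81.1%, 78.6%, 60.4% and 24.3% from sham to day 28, so that at day 14 most C1q macrophages were then under it. With a raw limit of 10 in place of 20 it was 76.5%, 80.2%, 52.6%, 27.6% and 9.62%. The day 7 library had 10000 barcodes and none under 4624 UMIs, whereas the others reached down to between 500 and 502. No barcode of a member was shared between libraries.

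**Figure D1:**
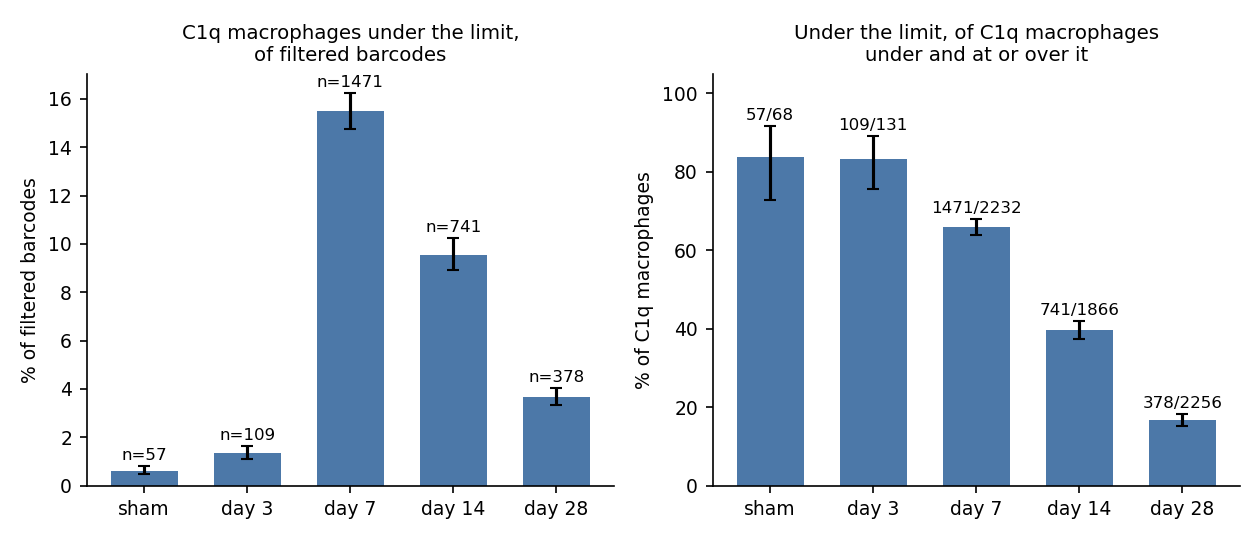
Left, C1q IMs as a percentage of filtered barcodes in each library; right, C1q IMs as a percentage of all C1q macrophages (C1q IMs and Mmp12-high cells). Bars are single libraries with exact 95% binomial intervals and the counts above them: the left share peaks at 15.5% at day 7, and the right share is lowest at 16.8% at day 28.

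The values that chose the members are given as a description. The median number of C1q UMIs per member was 103, 82, 104, 120 and 72 from sham to day 28, far above the limit of 10. *C1qa* gave 36.2% to 41.3% of these UMIs in the 5 libraries, *C1qb* 37.3% to 41.9% and *C1qc* 21.5% to 24.4%. The median of the *Gpnmb*, *Mmp12* and *Mfge8* sum was 1, 1, 3, 5 and 8 UMIs, so that members moved closer to the limit of 20 in later libraries. The limits cut through continuous values. The 369 barcodes with 5 to 9 C1q UMIs that met the other criteria had 29.9 CPM (UMIs of a gene per 1000000 UMIs of the summed cells) of *Ms4a7* and 215 CPM of *Csf1r*, against 34.1 and 256 CPM in the 187 with 10 to 14. The 298 cells with 15 to 19 UMIs of the *Gpnmb* sum had 9608.8 CPM of *Spp1* and 18801.9 CPM of *Apoe*, and the 278 with 20 to 24 had 10590.8 and 20615.9 CPM.

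The label of the cells was checked against marker genes outside the rule. *Ms4a7*, a membrane protein of macrophages outside the alveoli, was at 218, 487, 220, 187 and 234 CPM in C1q IMs from sham to day 28, with at least 1 UMI in 36.8%, 69.7%, 54.6%, 60.3% and 45.8% of members. *Pf4*, a platelet-type chemokine that interstitial macrophages also make, was at 1796.6, 1534.1, 451.5, 149.3 and 386.4 CPM and was found in 31.2% to 66.7% of members. *Ms4a7* lay above the AM levels of 8.53 to 22.5 CPM in every library, and *Pf4* above the AM levels of 2.52 to 6.47 CPM. *Csf1r*, the receptor for the macrophage growth factor, was at 747, 437, 381, 407 and 356 CPM. *Mertk*, a receptor for dying cells, was lower in sham, at 54.8 CPM, than at day 14 and day 28, at 210 and 181 CPM. As given below, *Mertk* was lower in the members than in AMs. In the sums over members *Ms4a7* and *Pf4* were thus above AMs, but not every member carried them. At day 14 and day 28 much of the *Pf4* came from few cells, as the next values show.

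C1q IMs were not 1 kind of cell. The UMIs of *Prg4*, *Alox15* and *Serpinb2*, a secreted lubricant, a lipoxygenase and a protease inhibitor, fell into separate groups. Together these genes had 0 UMIs in 52, 95, 1410, 706 and 336 members from sham to day 28, 1 to 4 UMIs in 1, 2, 38, 14 and 6, and 5 or more in 4, 12, 23, 21 and 36, where the medians were 225.5, 194, 97, 110 and 104 UMIs. The 96 members with 5 or more are called the Prg4 set. The 308 other members with 2 or more UMIs of *Lyve1*, *Folr2* and *Timd4*, a hyaluronan receptor, a folate receptor and a receptor for dying cells, are called the Lyve1 set, and the remaining 2352 members were 85.3% of all. Both limits were chosen after the data were seen, and levels in the sets are therefore descriptions without tests. The Prg4 set was 7.02% of members in sham (95% interval 1.95 to 17.0), 11.01% on day 3 (5.82 to 18.4) and, in the later libraries, 1.56% (0.994 to 2.34), 2.83% (1.76 to 4.30) and 9.52% (6.76 to 12.9). The Lyve1 set was 33.3% (21.4 to 47.1), 21.1% (13.9 to 30.0), 11.7% (10.1 to 13.5), 7.69% (5.88 to 9.85) and 9.79% (6.99 to 13.2). Thus the Lyve1 set made up a smaller part of members at day 7 and later than in sham, although it held 19 cells in sham and 172 at day 7.

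The Prg4 set differed most from the rest. Besides the 3 genes that chose it, its leading genes against the remaining members were *Vsig4*, a complement receptor, *Timd4*, which is also one of the genes that kept cells out of the remaining members, *Cd5l*, a secreted scavenger protein, *Saa3*, an acute-phase protein, *Cxcl13*, the B cell chemokine, *Ednrb*, an endothelin receptor, *Selp*, the adhesion molecule P-selectin, and *F5*, a clotting factor. They were ranked by UMIs pooled over the libraries. *Vsig4* was higher in 4 of the 5 libraries, and in sham it had 0 UMIs in this set and 29 in the Lyve1 set. *Icam2*, an adhesion molecule, was at 957, 1635.3, 499, 757 and 664 CPM in the 5 libraries, against 1.48 to 5.83 CPM in the remaining members. *Gata6*, a transcription factor known from resident macrophages of body cavities, was at 116, 72.9, 47.0, 43.8 and 93.6 CPM, against 0 to 1.94 CPM in the remaining members, and with predicted doublets removed the sham value was 56.4 CPM. These cells had C1q (*C1qa* 970 to 4504.9 CPM) and much *Pf4* (6219.7, 2399.1, 3742.6, 3514.5 and 2086.5 CPM). At day 14 and day 28 they held 1203 and 1159 *Pf4* UMIs, against 380 and 583 in the Lyve1 set. The remaining members held 784 and 377, at 55.4 and 84.5 CPM. However, *Ms4a7* was at 0, 6.34, 8.95, 2.92 and 5.401 CPM, from 0, 2, 4, 1 and 3 UMIs, close to or under its AM levels. The MHC class II gene *H2-Aa* was at 0, 31.7, 1134.2, 76.0 and 117 CPM, the last of them 33.0 CPM with predicted doublets removed. Their markers therefore go against the label of the members, and they are referred to by their leading genes.

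The Lyve1 set was led by *Cxcl13*, *Cd163*, the haemoglobin scavenger receptor, *Ccl8*, a monocyte chemokine, *Fcna*, a lectin, *Gas6*, a bridge to dying cells, *C4b*, *Pf4* and *F13a1*, a transglutaminase, next to *Lyve1* and *Folr2* that chose it. These genes were ranked against the remaining members by pooled UMIs, and some were higher in the Prg4 set. *Fcna* was at 427, 520, 709, 806 and 1114.4 CPM there, against 392, 368, 152, 128 and 442 CPM in the Lyve1 set. Pooled, *C4b* was at 1049.1 against 117 CPM and *Cxcl13* at 470.2 against 410.7 CPM. The order for *Cxcl13* differed between libraries. From sham to day 28 it was at 246, 31.7, 774, 114 and 725.5 CPM in the Prg4 set. In the Lyve1 set it was at 219, 3080.2, 44.0, 57.0 and 1785.2 CPM. With predicted doublets removed the day 28 value of the Prg4 set was 202.2 CPM. *Pf4* was at 4026.5, 3693.7, 1656.9, 281 and 1250.9 CPM in the Lyve1 set, under the Prg4 set except at day 3. *Cd163* was at 585, 214, 207, 51.1 and 182 CPM and *Ms4a7* at 705, 699, 531, 379 and 835 CPM, the highest of the 3 groups in each library for both genes. *Cd163* in this set was at 20.5 CPM at day 14 with barcodes carrying UMIs of other cell types left out and at 89.0 CPM at day 28 with predicted doublets removed. *Mrc1*, the mannose receptor, was at 1530.2, 1038.3, 652, 512 and 648 CPM. These cells also had the most *C1qa* of the 3 groups, between 5646.8 and 8022.9 CPM. The remaining members had more MHC class II in sham and at days 3, 7 and 28, with *H2-Aa* at 9244.2, 5696.9, 3559.4, 1946.2 and 2189.2 CPM, against 825, 434, 1600.5, 1956.5 and 1353.9 CPM in the Lyve1 set. At day 14 *H2-Ab1* was also close, at 1651.1 and 1565.8 CPM, and the order for *H2-Aa* turned with predicted doublets removed (2123.8 and 1755.5 CPM). In sham the remaining members also had *Ccr2*, the receptor for monocyte recruitment, at 1156.2 CPM, *Retnla* at 5878.2 CPM and only 69.8 CPM of *Ms4a7*. *Cd209a*, a lectin of monocyte-derived dendritic cells, was at 200 CPM in them and found with 2 or more UMIs in 9 of the 57 sham members (15.8%).

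**Figure D2:**
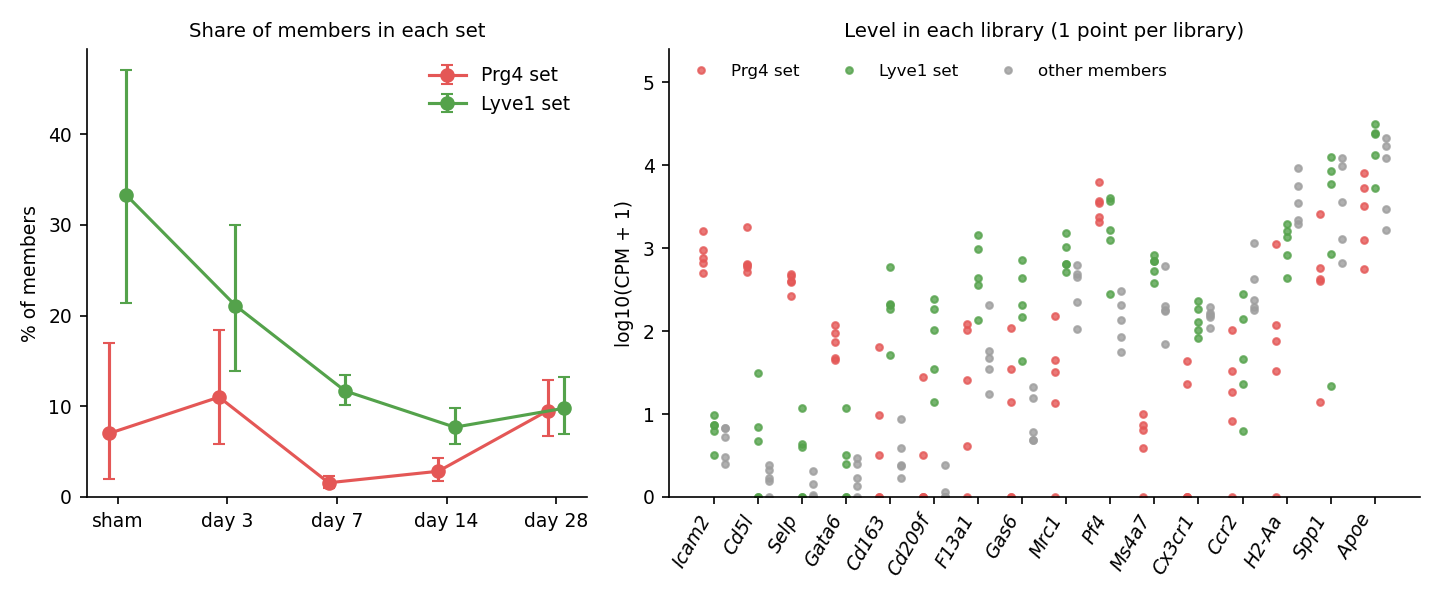
Left, the Prg4 set and the Lyve1 set as percentages of C1q IMs in each library, with exact 95% binomial intervals; right, log10(CPM + 1) of genes that did not choose the sets, with 1 point per library for each set and for the other members. The Prg4 set stands apart by *Icam2*, *Cd5l*, *Selp* and *Gata6* and has the lowest *Ms4a7*, and the Lyve1 set has the highest *Ms4a7* and *Cd163*.

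UMIs that came with other cell types were counted in the members. In the day 7 library 37 of 1471 members (2.52%) had 50 or more UMIs of *Scgb1a1*, the secretory protein of club cells, up to 9426 in 1 barcode, and these held 71.7% of all *Scgb1a1* UMIs of the members. The epithelial list (*Sftpc*, *Scgb1a1*, *Epcam*, *Krt18*) summed to 618, 202, 2933.9, 388 and 330 CPM from sham to day 28, most of it *Scgb1a1*, with *Krt18* at 0 in sham and day 3. The neutrophil list (5 genes) summed to 641, 662, 631, 519 and 204 CPM, with *S100a8* or *S100a9* as the most abundant gene and none of the 5 at 0, and 50 members at day 7 (3.40%) and 46 at day 14 (6.21%) had 10 or more UMIs of *S100a8*. The list of 8 AM markers was led by *Ear2* in sham, *Marco* at day 3 and *Chil3* later and summed to 1253.4, 564, 652, 1548.0 and 3660.3 CPM, with no gene at 0, and at day 28 72 of 378 members (19.1%) had 50 or more UMIs of *Chil3*. The dendritic cell list (7 genes) was led by *Cd209a* in sham and summed to 179, 32.6, 72.1, 23.4 and 11.7 CPM, with *Xcr1* and *Clec9a* at 0 in sham. The list of 6 monocyte markers, which includes *Ly6c2*, a gene of the rule at day 3, was led by *Plac8* in sham, *Ms4a4c* at day 3, *Ly6c2* at day 7 and *Hp* later and summed to 280.5, 617, 260, 118 and 165 CPM, with no gene at 0. The B cell list was highest in sham, at 176 CPM, and the T cell, endothelial, fibroblast and erythroid lists were below 100 CPM in every library. The part of these cells or of free RNA in the levels of the members was not tested beyond leaving out the barcodes above those limits of *Scgb1a1*, *S100a8*, *Cd209a* and *Chil3*, which was tried after seeing the data.

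C1q IMs were first compared with AMs of the same libraries, which had 2 or more *Car4* UMIs and fewer than 10 C1q UMIs (8100 barcodes). UMIs were summed per class and library and tested with edgeR's quasi-likelihood test with the library as a block, p-values were adjusted by Benjamini-Hochberg (BH) over all genes tested at a threshold of 0.05, and genes of either rule were left out of every count. The counts of other genes were not used to choose cells, but a gene that varies together with a rule gene will differ between classes chosen by it. Of 12130 genes tested over 5 libraries, 2322 (19.1%) were higher and 2227 (18.4%) lower in C1q IMs. The median log2 fold change of all genes was 0.00 in this comparison, 0.01 against Mmp12-high cells and -0.01 against monocytes.

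Against AMs, 13 of 14 genes of the interstitial list were higher, with a median log2 fold change of 4.51. *Ms4a7* was higher by 4.46 ± 0.12 (SE, n = 5 libraries, edgeR, BH-adjusted p = 7.3e-06) and *Maf*, the transcription factor whose half-site was searched above, by 5.30 ± 0.63 (edgeR, BH-adjusted p = 0.00074), each in 5 of 5 libraries. *Spi1*, which encodes PU.1, did not pass, at -0.25 ± 0.12 (edgeR, BH-adjusted p = 0.13). *Mertk* was the exception of the list and was lower, by -1.03 ± 0.25 (edgeR, BH-adjusted p = 0.015). Of the 16 Lyve1-type genes 15 were higher (median 5.71), and *Mrc1* was lower, by -0.98 ± 0.14 (edgeR, BH-adjusted p = 0.0018). Of 13 genes of the MHC class II list 11 were higher and none lower (median 2.64), among them *H2-Aa* by 3.26 ± 0.52 and *Cx3cr1*, the fractalkine receptor, by 5.28 ± 0.40. Conversely, 14 of 15 AM genes were lower (median -3.61), and the exception, *Fabp4*, did not pass.

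Secreted signals also differed from AMs. Of 17 chemokines 13 were higher and 1 was lower, *Ccl6*, at -1.55 ± 0.26. *Ccl12* was higher by 6.23 ± 0.45, *Ccl7* by 4.25 ± 0.52 and *Cxcl16* by 3.94 ± 0.33. Of 18 growth factors and cytokines 9 were higher and none lower, with the platelet-derived growth factor chain *Pdgfa* at 5.18 ± 0.49, the anti-inflammatory cytokine *Il10* at 4.17 ± 0.67 and *Vegfa* at 2.79 ± 0.36. In CPM, *Pdgfa* was at 49.7, 89.4, 57.1, 47.8 and 36.3 in C1q IMs and between 0.288 and 3.71 in AMs, so that the classes did not overlap. All 12 immediate early genes, which respond within minutes to stress and tissue dissociation, were higher (median 1.33), and so were 14 of 18 interferon-stimulated genes (median 1.79). Of 18 complement genes outside the rule 9 were higher and 2 lower, and of 16 clearance receptors 8 were higher and 6 lower. No gene of 12 in the cell cycle list passed in either direction (*Top2a* 0.21 ± 0.26, *Mki67* 0.49 ± 0.28), and 5 of 13 scar-associated genes, among them *Spp1* (0.04 ± 0.58) and *Fabp5* (-0.52 ± 0.44), did not pass either, with 4 higher, led by *Apoe* at 6.06 ± 0.39, and 4 lower. Both classes had been kept under the limit of *Gpnmb*, *Mmp12* and *Mfge8*, so that the scar-associated values do not describe alveolar cells at or over it.

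Genes of the Notch and Wnt pathways, which the study follows in macrophages, were compared with AMs in the same fit. Of 16 Notch genes tested 2 were higher and 2 lower, where 19.1% of all genes tested were higher and 18.4% lower. *Rbpj*, the DNA-binding partner of Notch, was higher by 2.03 ± 0.14 (edgeR, BH-adjusted p = 0.00012) and its target *Hes1* by 3.38 ± 0.38 (edgeR, BH-adjusted p = 0.00064). *Psen2* and *Maml1* were lower, at -0.83 ± 0.20 and -0.44 ± 0.13. Without the day 7 library *Mertk*, *Psen2* (-0.81), *Maml1* (-0.41) and *Ctnnb1* (-1.05) no longer passed, and *Maml1* also lost its call without sham (-0.40) or day 14 (-0.49). Of 17 Wnt genes 3 were higher and 6 lower, with *Ccnd1* higher by 4.01 ± 0.44 and *Tcf7l2*, a DNA-binding partner of β-catenin, lower by -2.28 ± 0.45 and *Ctnnb1*, β-catenin itself, by -1.12 ± 0.27. *Tcf7l2* was at 31.9, 43.2, 106, 301 and 276 CPM in C1q IMs and between 469 and 690 CPM in AMs. It was lower in C1q IMs in every library, by the least at day 14 and day 28. Of 17 transcription factors 8 were higher, among them *Mef2c* at 3.22 ± 0.32, and 5 lower, among them *Pparg*, the regulator of AM identity, at -2.19 ± 0.33.

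The genes with the largest changes in each direction that moved the same way in every library were then named by rule. Those higher in C1q IMs were *Alox15* (10.10 ± 0.78), *Cd5l*, *Prg4*, *Serpinb2*, *Cd163* (8.56 ± 0.74), *Cxcl13*, *Folr2* (8.43 ± 0.86), *Fcrls*, an Fc receptor-like protein (7.54 ± 0.40), *Ccl8* and *Ednrb*. Several of them came from few cells. Of the members' *Alox15*, *Prg4*, *Serpinb2* and *Cd5l* UMIs, 99.5%, 99.6%, 98.5% and 95.5% came from the Prg4 set, and of the *Cd163*, *Folr2* and *Ccl8* UMIs 90.9%, 90.4% and 89.4% came from the Lyve1 set. *Fcrls* was the one with most UMIs (66.7%) in the remaining members. When the Prg4 set was left out, also tried after seeing the data, *Alox15*, *Cd5l* and *Serpinb2* were no longer expressed enough to be tested, *Prg4* was at -0.11, and *Cd163*, *Folr2*, *Fcrls* and *Ccl8* were still called at 8.72, 8.53, 7.67 and 7.66. The genes lower in C1q IMs were *Krt79*, a keratin (-6.10 ± 0.34), *Fabp1*, *Lepr*, *Cidec*, *Acaa1b*, *Cpne5*, *Ear1*, *Rufy4*, *Plet1* and *Chil3* (-4.36 ± 0.64). In CPM *Krt79* was at 19.1, 0.758, 1.59, 7.45 and 4.56 in C1q IMs and between 193 and 809 in AMs.

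Mmp12-high C1q macrophages, which share all of the rule but the limit, were compared in the 4 bleomycin libraries, because the sham library held only 11 of them. Of 11965 genes tested, 421 (3.52%) were higher and 558 (4.66%) lower in C1q IMs. Without the library block no gene passed at the threshold (1103 genes at an unadjusted p under 0.05), and the count fell from 979 to 489, 513 and 255 without day 7, day 14 and day 28. The scar-associated list was lower, with 11 of 13 genes passing (median -1.27), but these genes are known companions of the 3 in the rule, so that their difference is not independent of it. *Spp1*, the matrix protein osteopontin, was at 644, 3846.1, 12149.9 and 9072.5 CPM in C1q IMs at day 3, 7, 14 and 28 against 4879.7, 9429.0, 23914.8 and 17778.8 CPM in Mmp12-high cells (-1.60 ± 0.29, edgeR, BH-adjusted p = 0.020). *Fabp5*, a fatty acid carrier, was lower by -1.99 ± 0.36, and *Trem2*, a lipid receptor, by -1.21 ± 0.22. *Apoe*, in contrast, did not pass (-0.15 ± 0.24, edgeR, BH-adjusted p = 0.77). Of 18 growth factors and cytokines 7 were lower and none higher, among them *Csf1*, the macrophage growth factor (-1.58 ± 0.23), *Igf1* (-1.11 ± 0.16), *Hbegf* (-1.10 ± 0.17) and *Pdgfa* (-0.61 ± 0.11).

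Genes of MHC class II and of division were higher in C1q IMs than in Mmp12-high cells, and so were some genes of monocytes. Of 13 genes of the MHC class II list 11 were higher and 1 was lower, *Ctss*. *H2-Aa* was at 3074.2, 3273.6, 1906.7 and 1908.3 CPM against 1929.7, 1372.3, 1118.9 and 444 CPM (1.12 ± 0.22, edgeR, BH-adjusted p = 0.024), *Cx3cr1* was higher by 1.44 ± 0.20 (edgeR, BH-adjusted p = 0.0087) and *Ccr2* by 1.84 ± 0.31 (edgeR, BH-adjusted p = 0.016), each in 4 of 4 libraries. Of 11 genes of the monocyte list 4 were higher (*Ccr2*, *Vcan*, *Plac8* and *Ifitm6*) and none lower. Of 12 cell cycle genes 10 were higher and none lower (median 1.28). *Top2a*, a topoisomerase of dividing cells, was at 28.8, 123, 63.2 and 42.9 CPM against 0, 74.7, 17.0 and 8.81 CPM (1.49 ± 0.28, edgeR, BH-adjusted p = 0.022). In the Lyve1-type list 7 of 16 genes were higher, including *Lyve1* (3.86 ± 0.34), *Cd163* (5.34 ± 0.34) and *Timd4* (4.51 ± 0.51), whereas *Folr2* (0.22 ± 0.44) and *Gas6* (0.15 ± 0.28) did not pass and *Igf1* was lower. Most of the *Timd4* came from the Prg4 set, with 115, 59, 49 and 149 UMIs at days 3, 7, 14 and 28. The Lyve1 set had 47, 31, 49 and 34 UMIs of it and the remaining members 2, 4, 2 and 0. *Ms4a7*, a marker of the members, was lower than in Mmp12-high cells (-0.55 ± 0.12, edgeR, BH-adjusted p = 0.037), and without the Prg4 set it was at -0.41 and no longer passed. With 3 of the 4 libraries several of these calls were lost at a similar size: *Ms4a7* without day 7, 14 or 28 (-0.48, -0.49 and -0.62), *H2-Aa* without day 7 or 28 (1.11 and 0.86), *Top2a* without day 14 or 28 (1.43 and 1.28), *Ccr2*, *Spp1* and *Fabp5* without day 7 (1.82, -1.67 and -2.04), and *Trem2* without day 7 or 28 (-1.28 and -1.27). *Spp1* also did not pass in DESeq2 (-1.59). *Pdgfa* was lost without day 7, 14 or 28 (-0.59, -0.57 and -0.53) and *Hbegf* without day 14 (-0.95). *Csf1r* (0.43 ± 0.17) did not pass. *Hes1* was higher by 2.48 ± 0.35 and *Rbpj*, at 0.45 ± 0.12, did not pass (edgeR, BH-adjusted p = 0.062). The fibroblast genes *Col1a1* (2.11) and *Col3a1* (2.45) were higher as well, and each lost its call when barcodes with UMIs of other cell types, predicted doublets or the Prg4 set were left out.

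The genes named by rule in this comparison were *Prg4*, *Alox15*, *Serpinb2*, *Ednrb*, *Cxcl13* (5.02 ± 0.31), *Ptgis*, *Icam2*, *Lyve1*, *Saa3* and *C4b* among the higher ones. Without the Prg4 set *Ptgis* (0.54) and *Icam2* (0.37) lost the call and *Saa3* reversed to -0.95, and *Cxcl13* (4.51), *Lyve1* (3.48) and *C4b* (2.02) kept it. The lower ones were *Npy*, a neuropeptide (-4.50 ± 0.19), *Plpp3*, a lipid phosphatase, *Ctsk* and *Ctsl*, lysosomal proteases, *Atp6v0d2*, a proton pump subunit, *Fabp5*, *Rnf128*, *Il7r*, *H2-M2* and *Slc6a8*. *Npy* was at 6.82, 1.86, 1.96 and 3.83 CPM in C1q IMs against 227, 38.1, 25.1 and 112 CPM, so that each library separated the classes. *Ctsk* was at 26.5, 49.6, 185 and 245 CPM against 640, 167, 257 and 1114.1 CPM, and the gap was narrowest at day 14. *Ctsk* and *Atp6v0d2* were lost without day 7 (-2.31 and -1.86) or day 28 (-2.07 and -2.39), and *Saa3* without day 3, 14 or 28 (3.32, 3.99 and 2.99).

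**Figure D3:**
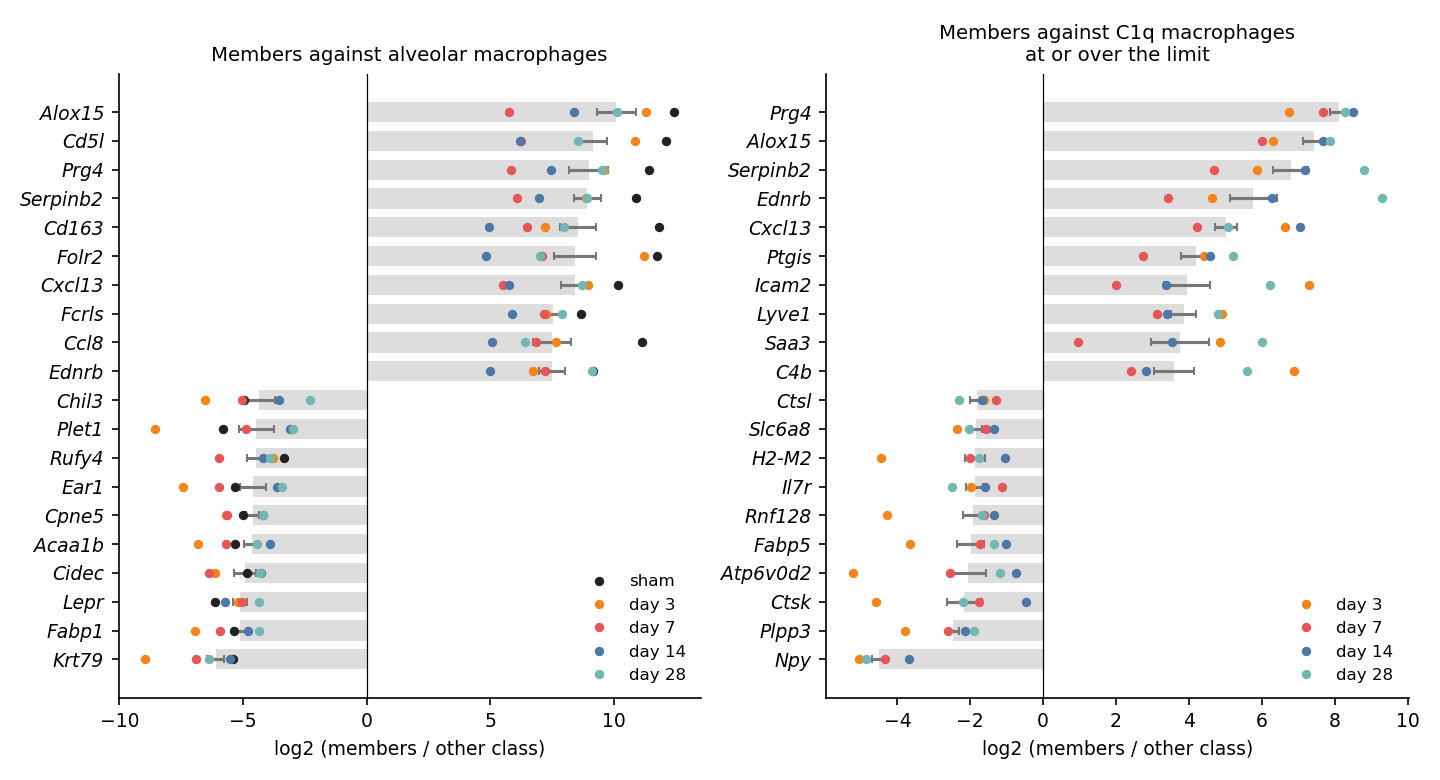
log2 fold change of the genes named by rule in C1q IMs (members) against AMs (left) and against Mmp12-high C1q macrophages, drawn as those at or over the limit (right). Bars are edgeR estimates with their SE, and points are log2 CPM ratios in single libraries, with a class at 0 UMIs set to 3 counts; every gene has its points on 1 side of 0.

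Against Ly6c2 monocytes (3 or more *Ly6c2* UMIs, at least 1 of *Ccr2* and of *Csf1r*, at most 2 of C1q), which were numerous enough only in the sham, day 3 and day 7 libraries, 128 of 8033 genes (1.59%) were higher and 139 (1.73%) lower in C1q IMs. These counts rest on the day 3 library, which held 955 of the monocytes: without it 6 genes passed in all, and without the sham or day 7 library 506 and 675. Of the genes named next, *Isg15* (-1.62), *Pdgfc* (3.67), *Il10* (2.68), *Igf1* (3.08), *Fcna* (6.21), *Retnla* (6.13) and *Fcrls* (5.87) were among those that did not pass without day 3. Of 15 Lyve1-type genes tested 10 were higher (median 3.91), with *Cd163* at 7.28 ± 0.34 (edgeR, BH-adjusted p = 0.0003) and *Folr2* at 6.46 ± 0.43. Of 18 interferon-stimulated genes 13 were lower and none higher, with *Isg15* at 39.5, 453 and 49.3 CPM in C1q IMs against 126, 1843.2 and 143 CPM (-1.78 ± 0.21, edgeR, BH-adjusted p = 0.013). At day 3 the rule keeps barcodes with 3 or more *Ly6c2* UMIs out of the members, and the same level chose the monocytes. Without that exclusion *Isg15* was at 1541.1 CPM in the day 3 members, so that the gap depends on the rule. The comparison with monocytes was not tested without the exclusion. None of the 12 MHC class II genes tested passed in either direction, and *H2-Aa* was higher in C1q IMs in sham and at day 3 and lower at day 7. Of 18 growth factors and cytokines 5 were higher, among them *Pdgfc* (3.57 ± 0.41), *Il10* and *Igf1*. The genes named by rule were *Alox15* (11.26 ± 0.39), *Prg4*, *Cd5l*, *Fcna*, *Cxcl13*, *Ptgis*, *Cd163*, *Retnla* (7.12 ± 1.15), *Fcrls* and *Fxyd2* among the higher ones. The lower ones were monocyte genes such as *Plac8* (-4.64 ± 0.25), *Hp* and *Ly6c1*, with *Cd7*, *Cd177*, *Ace*, *Ifitm6*, *Ly6i* and *Ifi205*.

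Over time the members were compared with sham by the ratio of CPM, taking genes with 100 CPM or more in sham or on that day. A gene that reaches 100 CPM only in sham or only on that day enters through the library where it is high. Counts of 2-fold genes therefore rest in part on this limit. At day 3, 113 of 1714 genes (6.59%) were 2-fold or more higher and 74 (4.32%) lower. At day 7 these were 50 of 1648 (3.03%) and 95 (5.76%), at day 14 115 of 1699 (6.77%) and 163 (9.59%), and at day 28 130 of 1690 (7.69%) and 198 (11.7%). All 4 ratios share the sham library with its 57 members, and the median log2 ratio of all genes moved from 0.02 at day 3 to -0.03, -0.09 and -0.13. Relative to that median, 110 genes were higher and 80 lower at day 3, 55 and 88 at day 7, 134 and 145 at day 14 and 149 and 156 at day 28. The ratios were not tested, and they include changes in the mix of the Prg4 set, the Lyve1 set and the remaining members.

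At day 3 the interferon-stimulated genes stood out. Of the 18 genes on the list, 14 reached 100 CPM in sham or at day 3, and all 14 were 2-fold or more higher. Several, among them *Irf7* and *Isg15*, reached it at day 3 only, so that this count follows in part from the limit. The genes under it in both libraries, *Ifit2*, *Mx1*, *Cmpk2* and *Stat2*, had log2 ratios of 3.83, 2.77, 1.95 and 2.16. The list summed to 7757.5 CPM against 1102.9 CPM in sham, and by day 28 it was at 835.5 CPM. *Irf7*, the regulator of interferon production, was at 23.0, 630, 62.4, 39.5 and 13.3 CPM from sham to day 28, and *Isg15*, a ubiquitin-like protein, at 39.5, 453, 49.3, 51.4 and 14.0 CPM. *Slfn4* had 275 UMIs at day 3 and 0 in sham, at least 54.5-fold higher against 3 counts, and *Ly6a*, *Il18bp*, *Rsad2*, *Oasl1*, *Zbp1* and *Oasl2* were others with the largest ratios, from 35.4-fold down to 11.4-fold. Among the lowest were *Cd209a* (36.7-fold), of whose sham UMIs 96.3% came from 9 members, the division genes *Cenpa*, *Ube2c*, *Top2a*, *Mki67* and *Birc5* (11.4 to 5.09-fold) and *Ccr2* (5.64-fold, from 761 to 135 CPM). The exclusion by *Ly6c2* acts on the day 3 members only and bears on these ratios. Without it, a setting tried after seeing the data, *Ccr2*, a monocyte gene, was at 312.5 CPM at day 3, 2.44-fold under sham, while the other genes named here kept their direction, *Irf7* at 1302.0 CPM and *Mki67* at 8.22 CPM. The size of their ratios moved, *Ly6a* from 35.4-fold to 178-fold, *Rsad2* from 27.4 to 78.1-fold and *Isg15* from 11.4 to 39.0-fold. Among the lower genes *Ube2c* went from 9.48 to 48.8-fold, whereas *Cenpa* went from 11.4 to 8.08-fold. *Mki67* and *Top2a* together had 2 or more UMIs in 17.5% of members in sham (8.75 to 29.9) and in 3.67% on day 3 (1.01 to 9.13). Later this share was 20.1% (18.1 to 22.3), 10.1% (8.05 to 12.5) and 4.50% (2.64 to 7.10). These cells were not thinned, and their median depth differed between libraries as given above.

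From day 7 the Lyve1-type genes were lower and the scar-associated genes higher. Of 16 Lyve1-type genes 12 reached 100 CPM in sham or at day 7, some of them, such as *Lyve1* and *Cd163*, in sham only. All 12 were 2-fold or more lower at day 7, a count that follows in part from the limit. Of those under it in both libraries, *Timd4*, *Cd209f* and *Cd209g* had log2 ratios of -3.65, -2.24 and -2.04, and *Igf1* of -0.15. The list sum was 1421.6 CPM at day 7 against 5129.6 CPM in sham. At day 14 11 of 12 were lower, with a median log2 ratio of -3.42. At day 28 9 of 13 were lower and 1 was higher, and the sum was 2204.6 CPM. *Lyve1* was at 128, 227, 25.5, 13.6 and 70.8 CPM from sham to day 28, *Cd163* at 148, 52.3, 25.7, 5.74 and 24.3 CPM and *Folr2* at 281, 277, 52.5, 20.1 and 50.7 CPM, each lowest at day 14. With predicted doublets removed, the day 28 levels of *Lyve1* and *Cd163* were 23.9 and 9.41 CPM, and with barcodes carrying UMIs of other cell types left out the day 14 level of *Cd163* was 3.77 CPM. MHC class II genes were 2-fold lower in 6 of 9 cases at day 14 and 7 of 9 at day 28, and *Ctss*, a protease of antigen processing, was higher on both days (4.31-fold and 3.21-fold). At day 28 their list summed to 15863.7 CPM against 35070.5 CPM in sham. *Cx3cr1* changed less, at 163, 93.2, 140, 153 and 164 CPM.

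Scar-associated genes were 2-fold or more higher in 6 of 13 cases at day 7 and in 11 of 13 at day 14 and day 28, although the cells had been kept under the limit of *Gpnmb*, *Mmp12* and *Mfge8*. Their sum was 12045.5, 12177.8, 30203.4, 50013.0 and 50142.8 CPM from sham to day 28. *Spp1* was at 858, 644, 3846.1, 12149.9 and 9072.5 CPM, 14.2-fold and 10.6-fold above sham at day 14 and day 28, and *Apoe*, a lipid carrier, at 4456.3, 2965.0, 13380.6, 17543.3 and 20914.6 CPM. *Spp1* above the sham level was found in the Lyve1 set (20.9, 862, 5898.2, 12694.6 and 8584.7 CPM) and in the remaining members (1295.9, 656, 3638.5, 12377.9 and 9933.7 CPM, above sham from day 7), and the Prg4 set had 12.9, 399, 425, 573 and 2563.5 CPM. With barcodes carrying UMIs of other cell types left out, 3 fewer cells, the day 28 value of the Prg4 set was 387 CPM, and with predicted doublets removed the day 3 value of the Lyve1 set was 358 CPM. In sham these sets had 1 and 4 UMIs of *Spp1*. At day 14 *Ctsd*, *Acp5*, *Atp6v0d2*, *F7*, *Cd200r4*, *Syngr1*, *Tcf7l2*, *Wfdc21* and the transcript *AY036118* also had large ratios (28.6 to 6.90-fold), and at day 28 *Ctsk* and *Bhlhe41*, a transcription factor of AMs (19.7-fold). The lowest at day 14 included *Plac8* (41.1-fold), *Mgl2*, a lectin (31.5-fold), *Cd163* (25.8-fold), *Gas6*, *Cd209a*, *Ccl17*, *F13a1*, *Clec10a* and *Igfbp4*. At day 28 they included *Plac8*, *Mgl2*, *Cd209a*, *Gpr132*, *Ccl7* (13.6-fold), *Gas6*, *Marcksl1* and *S100a9*. *Hist1h2ap*, a histone gene, had 119 UMIs in sham and 18 and 2 at day 14 and day 28.

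Other genes with large ratios at day 7 were the following. *Scgb3a2*, *Wfdc2*, *Scgb3a1*, *Mgp* and *Scgb1a1* were 20.5 to 4.81-fold higher in the library in which 37 members carried the club cell signal described above. *Syngr1* (34.6-fold), *Fabp5* (4.88-fold), *F7* and *Ly6a* were higher as well. *Alox15* (14.6-fold), *Serpinb2* (9.17-fold) and *Prg4* (from 451.4 to 60.2 CPM) were lower, and so were *Lyz1*, *Cd209a*, *Retnla* (8.25-fold, in the remaining members from 5878.2 to 249 CPM), *Serpinb1a*, *Fgfr1*, *Cwc22* and *Ccl24*. The first 3 are the genes of the Prg4 set, which was 1.56% of members at day 7 and 7.02% in sham. Chemokines were mostly lower late: 8 of 12 at day 14 and 9 of 13 at day 28 were 2-fold or more lower and 1 and 2 higher, *Ccl7* going from 1295.5 and 2606.5 CPM in sham and day 3 to 123 and 95.6 CPM. Of 15 AM genes 7 reached 100 CPM in sham or at day 28, *Plet1* and *Atp6v0d2* among them at day 28 only. Of these 7, 6 were 2-fold or more higher, a count that follows in part from the limit. The list summed to 4706.7 CPM against 1417.9 CPM, in the library where the 72 *Chil3*-rich members held 83.7% of the *Chil3* UMIs. Under 100 CPM in both, *Ear1*, *Siglecf*, *Pparg* and *Krt19* had log2 ratios of 2.15, 2.28, 1.95 and 1.41. *Marco* and *Cidec* were at 0.40 and -0.04, and *Krt79* and *Fabp1* at -2.07 and -1.45. *Tcf7l2* was 9.45-fold and 8.66-fold above sham at day 14 and day 28.

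**Figure D4:**
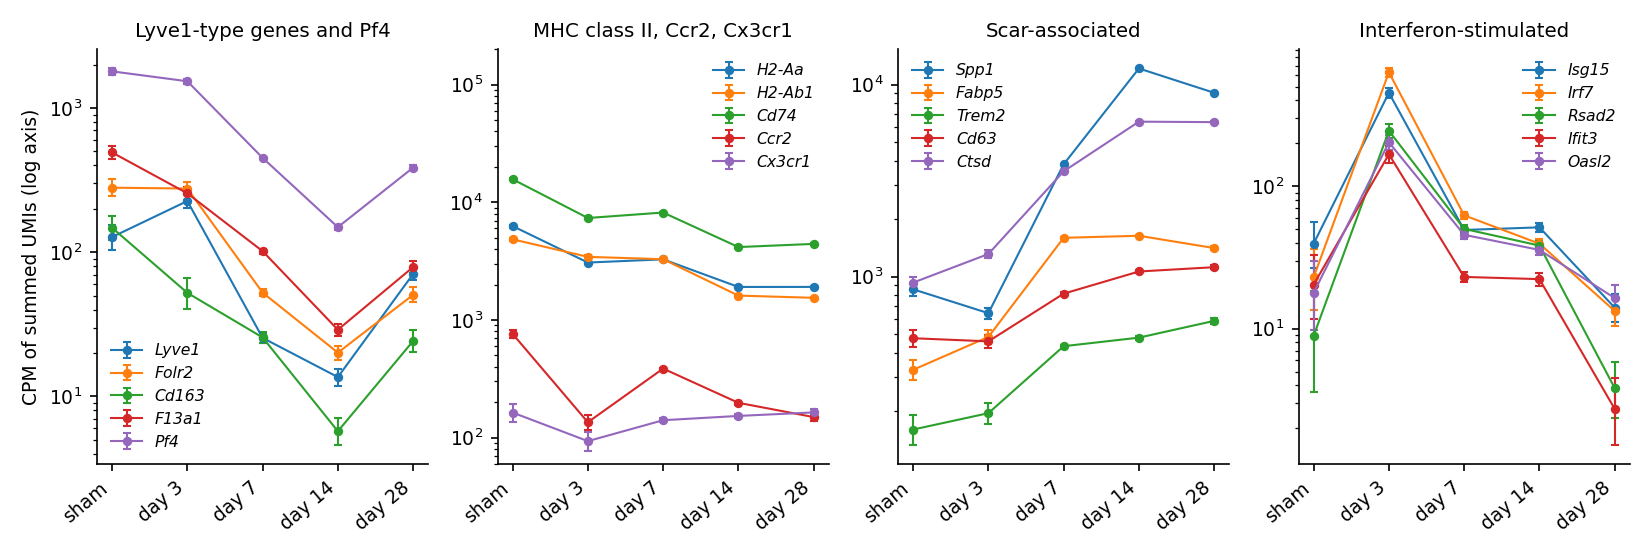
CPM (log axis) of named genes in C1q IMs by library, with exact 95% Poisson intervals. Lyve1-type genes are lowest at day 14, scar-associated genes are highest at day 14 or day 28 except *Fabp5*, which is about level from day 7, and the interferon-stimulated genes peak at day 3.

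The balance of the 2 known kinds of IM was read in cells thinned to 2000 UMIs, because detection depends on depth. A UMI of *Folr2* or *Lyve1* was found in 29.1% (17.6 to 42.9) of C1q IMs in sham and in 18.0% (11.03 to 26.95) on day 3, and then in 8.36% (7.00 to 9.90), 3.94% (2.65 to 5.61) and 8.58% (5.94 to 11.9). A UMI of *Cx3cr1* was found in 23.6% in sham, in 11 of 100 cells on day 3 and then in 20.9%, 23.6% and 19.8%. The first share minus the second was 5.46 and 7.00 percentage points in sham and on day 3 and -12.5, -19.7 and -11.3 points later. However, in sham and day 3 the intervals of both shares overlap, the sham difference was -15.8 points without thinning and -9.26 points thinned to 4000 UMIs, and the day 3 difference was -0.917 and 7.32 points. Both kinds of UMI were seen in the same thinned cell in 0.884% to 7.27% of members, and neither in 54.6% to 73.4%, so that most members had no UMI of these genes at this depth.

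The reporter was read from the feature RFP of the files, taken as tdT. After thinning, at least 1 reporter UMI was found in 32.7% of C1q IMs in sham (20.7 to 46.7) and in 40 of 100 on day 3 (30.3% to 50.3%). On day 7 it was found in 31.9% (29.5 to 34.3), on day 14 in 72.3% (68.9 to 75.5) and on day 28 in 29.0% (24.4 to 33.9). AMs had 19.98%, 23.3%, 13.2%, 41.2% and 27.7%, and Ly6c2 monocytes had 79.8%, 76.9% and 24.1% in sham, day 3 and day 7. Lymphocytes, which the *Ms4a3* lineage should not include, give the background: B cells had 12.1%, 9.597%, 14.3%, 19.4% and 11.5%, and T cells 20.4%, 12.7%, 18.4%, 40.2% and 22.5%. Median depths before thinning were 13026, 9144, 13349, 21301 and 13936 UMIs in C1q IMs, 3402 to 7918 in B cells and 3940.5 to 8438.5 in T cells. The share in C1q IMs was above that of B cells and of T cells in every library, and its interval overlapped the T cell interval of 16.5 to 24.7 in sham and of 18.8 to 26.6 at day 28.

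C1q IMs had a higher reporter share than AMs in 5 of 5 libraries, by 16.1 percentage points on average (SD 10.8, n = 5). These AMs were also under the limit of *Gpnmb*, *Mmp12* and *Mfge8*, and *Car4* cells at or over it were not compared. At day 28 both shares were close, at 29.0% and 27.7%, with overlapping intervals. The exact permutation test gave p = 0.0625, the smallest value that 5 libraries allow, so that this design cannot reach 0.05. With the Prg4 set or the barcodes carrying UMIs of other cell types left out, 4 of 5 libraries were higher in C1q IMs, by 16.3 and 14.3 points on average. The difference came with thinning: in cells at full depth it was -0.794 points and 2 of 5 libraries were higher in C1q IMs, with AMs the class of higher median depth in each library (14380 to 22308 UMIs). By UMIs summed per class, which do not depend on cell depth in this way, the reporter was at 237, 370, 356, 1588.1 and 386 CPM in C1q IMs against 115, 147, 84.6, 573 and 316 CPM in AMs, a log2 difference of 1.35 ± 0.23 (edgeR, Benjamini-Hochberg adjusted p = 0.0034). Against Mmp12-high cells the thinned shares at day 14 were 72.3% and 71.6% with overlapping intervals, and at day 7 C1q IMs were lower, at 31.9% (29.5 to 34.3) against 44.2% (40.6 to 47.8). At day 3 the shares were 40% and 40.9%, and at day 28 they were 29.0% (24.4 to 33.9) and 35.0% (32.8 to 37.2). The intervals overlapped on both of these days. T cells moved with the macrophages at day 14, and the part of the background in the day 14 share was not tested.

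The sets of members differed in the reporter. In sham and at day 3 the Prg4 set had 64.7 (21.0 to 151) and 38.0 (19.7 to 66.4) CPM and the Lyve1 set 104 (63.8 to 161) and 110 (76.7 to 153) CPM, none above the B cell level of its library (138 CPM in sham) beyond the interval. With predicted doublets removed the sham value of the Prg4 set was 37.6 CPM, from 2 UMIs in place of 5. The remaining members had 312 (266 to 365) and 643 (584 to 706) CPM, above both. At day 7 the order was different, with 257, 545 and 332 CPM in the Prg4 set, the Lyve1 set and the remaining members, and at day 14 all were high, at 1674.0, 1317.2 and 1611.9 CPM, against 148 CPM in B cells and 295 CPM in T cells. At day 28 they were at 594, 217 and 377 CPM, with B cells at 126 CPM. The *Ly6c2*-positive C1q macrophages left out of the rule at day 3 had a reporter UMI in 67.1% of thinned cells, against 40 of 100 C1q IMs and 76.9% of Ly6c2 monocytes.

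**Figure D5:**
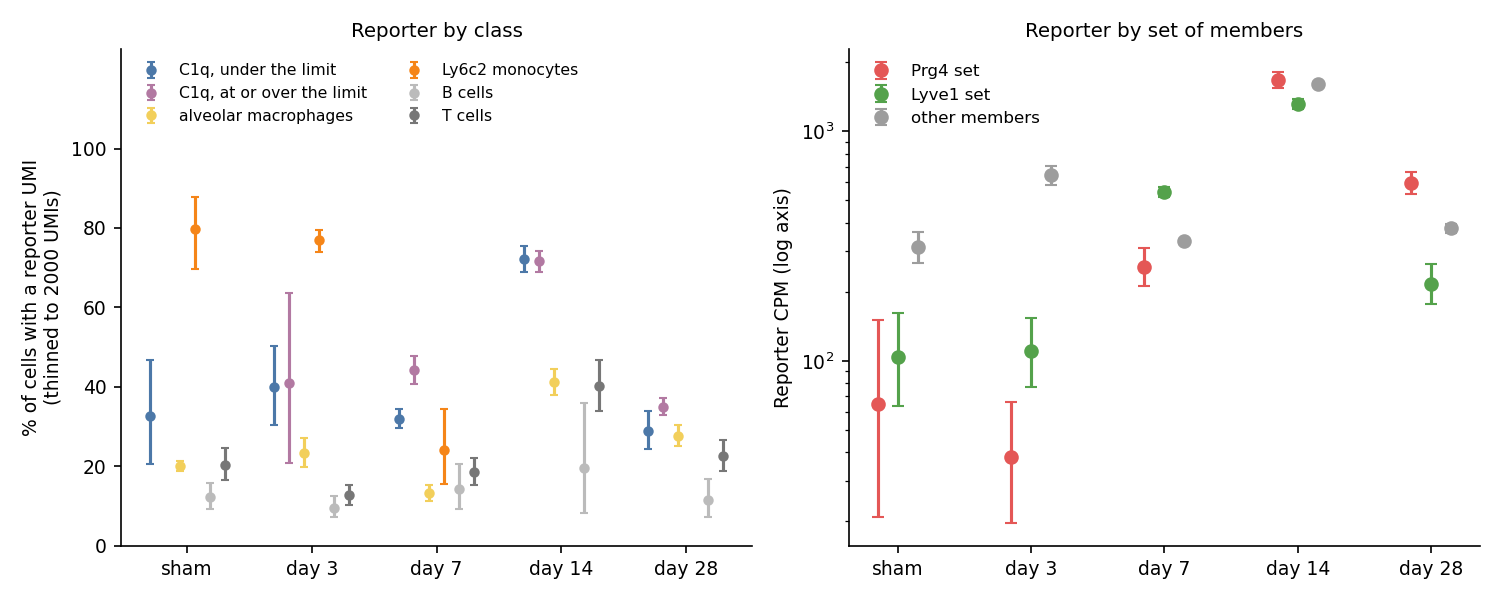
Left, percentage of cells with a reporter UMI after thinning to 2000 UMIs, by class and library, with exact 95% binomial intervals ("under the limit" are C1q IMs, "at or over the limit" Mmp12-high cells). Right, reporter CPM (log axis) in the sets of C1q IMs with exact 95% Poisson intervals: the Prg4 and Lyve1 sets are below the other members in sham and at day 3 and all 3 exceed 1300 CPM at day 14.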

How the data were processed

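The deposited values are UMI counts per gene and barcode from 10x Genomics 3′ libraries, which the authors made with Cell Ranger 6.0.0 against mm10, and no sample column was left unused. The members and all gene lists (28 lists, 294 genes) were chosen with earlier results of these data known. Cells were not used as replicates: counts were summed per class and library where each class had 20 or more cells, and tested with edgeR 4.0.16 (TMM, filterByExpr, quasi-likelihood test, library as a block, Benjamini-Hochberg, threshold 0.05), with DESeq2 1.42.0 as an alternative, in R 4.3.3. The procedure was tested on simulated data. Each library stands for 1 time point, and whether p-values cover more than technical spread cannot be told. Named genes were the 10 largest changes in each direction among genes that passed, reached 50 CPM in the higher class and moved the same way in every library (between days, the 10 largest ratios at 100 CPM), without rule genes and without ribosomal, mitochondrial, immunoglobulin and predicted genes. Results for 3 genes are not reported here. Doublets were scored with Scrublet in scanpy 1.11.5 at an expected 0.8% per 1000 barcodes and removed only in an alternative. Shares of cells with a UMI of *Folr2* or *Lyve1*, of *Cx3cr1* or of the reporter were compared in cells thinned to 2000 UMIs. The other shares come from cells that were not thinned. Total UMIs per library over all barcodes were 131210167 (11386 barcodes) in sham and 89769386 (8971), 151234640 (10000), 144984156 (9755) and 167506186 (12688) at days 3, 7, 14 and 28.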

Additional observations from a re-analysis of the deposited data

How the results depend on the processing

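With 1 library per time point, differences between days have no replicate check, and levels in sham rest on 57 members. Without the library block the tests called 2721 genes against AMs in place of 4549, 0 against Mmp12-high cells in place of 979 (1103 at an unadjusted p under 0.05) and 9 against monocytes in place of 267 (1011 unadjusted). No filter on low counts gave 2030 and 1298 in the last comparisons, and DESeq2 gave 1437 and 505. Leaving out 1 library gave 2998 (without day 7) to 4435 (without sham) against AMs, 255 (without day 28) to 1115 against Mmp12-high cells and 6 (without day 3) to 675 against monocytes. With limits per 10000 UMIs, 54.67% of the calls against Mmp12-high cells were higher in C1q IMs, against 43% with raw UMIs.

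The share of C1q IMs at day 7 minus sham was 14.88 points, and 17.04 with limits per 10000 UMIs, 13.57 with 20 or more C1q UMIs, 11.79 with a limit of 10 for *Gpnmb*, *Mmp12* and *Mfge8* and 13.16 with the *Ly6c2* exclusion in all libraries. The share at day 28 minus day 7 was -11.82 points, and -12.66 per 10000 UMIs, -10.25 with the limit of 10, -10.08 with the exclusion in all and -10.83 with the lowest day 7 UMI count as a floor. The part of C1q macrophages under the limit at day 28 minus day 7 was -49.15 points, and -54.24 per 10000 UMIs. At 50 CPM in place of 100, 369, 274, 505 and 539 genes were 2-fold from sham at days 3, 7, 14 and 28, in place of 187, 145, 278 and 328.

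The *Folr2* or *Lyve1* share minus the *Cx3cr1* share reversed without thinning in sham, to -15.79 points, and was -0.917, -33.31, -45.75 and -23.02 at days 3, 7, 14 and 28. Thinned to 4000 UMIs it was -9.259 in sham, which also turned, and 7.317, -22.71, -29.13 and -19.77 later, and with barcodes carrying UMIs of other cell types left out it was -24.22 at day 14. The reporter difference from AMs also reversed without thinning, to -0.7943 points. Without the Prg4 set *Saa3* against Mmp12-high cells turned to -0.95, and *Prg4* against AMs was at -0.11, no difference, as the choice of that set by its *Prg4* UMIs fixes. Apart from thinning and leaving out the Prg4 set, the cause of these changes was not tested. Over the alternatives other than those added after seeing the data, for genes named by rule, 240 of 240 values kept their call against AMs, 189 of 220 against Mmp12-high cells and 166 of 196 against monocytes. A named gene that was not tested in a setting is left out of these counts, which lowers the total against monocytes. The block was the library itself, in which the compared classes were measured together, so that it pairs the sums by design.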
